A study of Mus musculus with 12 samples.

Results

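The genes described here were 38 listed components, inhibitors and targets of the NF-kB pathway, measured in bone marrow derived macrophages (BMDMs). The list held 5 NF-kB subunits, 6 genes of the IkB family, 5 feedback inhibitors, 12 signalling components and 10 effector targets. A listed gene was kept when it had at least 10 counts in at least 2 libraries. All 38 passed, among 16281 genes that passed of 54232 in the count table. NF-kB is a family of dimeric transcription factors held in the cytoplasm by IkB proteins. Stimulation of Toll-like, interleukin-1 or TNF receptors activates IkB kinase, which marks IkB for degradation and lets the dimers enter the nucleus. Many of the genes they switch on encode their own inhibitors, among them IkB alpha and A20, so that the response of a macrophage to a stimulus is limited in size and time.

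The cells came from wild-type C57BL/6 mice, of 6 to 8 weeks of age by the methods of the study, and had been cultured for 5 days. They were then kept for 24 h with or without tumor conditioned medium (TCM) and with or without 500 nM R788 (fostamatinib), an inhibitor of the tyrosine kinase Syk. The 6 groups of 2 libraries were NS (neither TCM nor R788), R788, NB9464 TCM, NB9464 TCM + R788, NBT3L TCM and NBT3L TCM + R788. Libraries are named as in the labels, SJ1 and SJ2 (NS), SJ3 and SJ4 (NB9464 TCM), SJ5 and SJ6 (NBT3L TCM), SJ7 and SJ8 (R788), SJ9 and SJ10 (NB9464 TCM + R788) and SJ11 and SJ12 (NBT3L TCM + R788). NB9464 is a mouse neuroblastoma line with amplified MYCN, and NBT3L is one without the amplification. By the methods, BMDMs were grown in RPMI with serum and M-CSF, whereas NB9464 cells conditioned DMEM without serum. The preparation of NBT3L TCM, the medium of the NS cells and the vehicle of R788 were not described, so a difference between a TCM group and NS cannot be told apart from one of base medium or serum. Nothing in the labels says whether the libraries of a group came from separate cultures or animals, and p-values measure only the spread between these libraries. In RNA of whole cultures, fewer cells that express a gene and less RNA per cell cannot be told apart.

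Promoter sequences were read for the members, since a kB site near the start of transcription is the element that NF-kB dimers bind. RefSeq windows of 250 bases before to 50 after a start site (GRCm38.p6) were found for 31 of the 38 genes. The kB consensus, a degenerate motif of 10 bases searched on both strands, matched in 14 of these 31 genes, or 45.2%. It matched in 9.6% of the 27025 genes in the table and in 8.5% of its 32851 windows. Matches were found for 4 of 5 IkB family genes with a window, 3 of 5 feedback inhibitors, 2 of 3 subunits, 4 of 9 effector targets and 1 of 9 signalling components. The windows below belong to the subunits, IkB genes and feedback inhibitors that held a match and were among the most changed of their class in a comparison, or are read throughout (Nfkbia and Tnfaip3). Each reads 5′ to 3′ on the strand of the gene, with the matches in capitals, and a longer run in capitals holds overlapping matches. Nfkb2 (chr19:46304487-46304786, plus strand) encodes p100, the precursor of p52. Rel (chr11:23770920-23771219, minus strand) encodes c-Rel. Nfkbia (chr12:55492598-55492897, minus strand) encodes IkB alpha, and its match began at position -29 from the start site. Nfkbie (chr17:45555450-45555749, plus strand) encodes IkB epsilon, with a match at -106. Bcl3 (chr7:19822706-19823005, minus strand) encodes a nuclear IkB protein. Tnfaip3 (chr10:19015361-19015660, minus strand) encodes the ubiquitin-editing enzyme A20. Tnip3 (chr6:65590148-65590447, plus strand), which encodes an A20-binding inhibitor, had its match at -54. Nfkb2 and Tnfaip3 had further windows that are not shown.
Nfkb2: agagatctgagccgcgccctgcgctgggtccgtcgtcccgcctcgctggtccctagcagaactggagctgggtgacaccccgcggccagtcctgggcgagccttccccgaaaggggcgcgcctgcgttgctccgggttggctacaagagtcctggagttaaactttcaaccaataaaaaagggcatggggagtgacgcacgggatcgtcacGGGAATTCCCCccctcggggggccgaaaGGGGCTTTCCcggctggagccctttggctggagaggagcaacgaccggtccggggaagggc
Rel: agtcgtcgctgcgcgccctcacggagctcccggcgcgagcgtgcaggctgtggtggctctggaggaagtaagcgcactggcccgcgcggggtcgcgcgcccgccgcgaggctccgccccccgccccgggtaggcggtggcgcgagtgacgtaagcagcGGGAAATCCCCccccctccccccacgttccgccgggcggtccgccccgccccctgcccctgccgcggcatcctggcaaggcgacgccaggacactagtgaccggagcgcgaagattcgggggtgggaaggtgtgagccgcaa
Nfkbia: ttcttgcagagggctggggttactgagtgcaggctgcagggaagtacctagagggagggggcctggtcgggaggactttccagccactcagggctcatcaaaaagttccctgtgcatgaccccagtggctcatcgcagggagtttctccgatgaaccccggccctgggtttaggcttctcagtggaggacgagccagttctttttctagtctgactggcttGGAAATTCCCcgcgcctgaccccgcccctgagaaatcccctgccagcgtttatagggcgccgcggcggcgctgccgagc
Nfkbie: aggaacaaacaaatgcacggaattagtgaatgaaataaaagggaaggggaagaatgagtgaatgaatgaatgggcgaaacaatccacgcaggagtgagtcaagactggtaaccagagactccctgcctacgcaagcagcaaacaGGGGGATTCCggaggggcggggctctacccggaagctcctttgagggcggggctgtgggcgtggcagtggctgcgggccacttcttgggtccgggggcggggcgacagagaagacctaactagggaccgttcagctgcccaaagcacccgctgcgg
Bcl3: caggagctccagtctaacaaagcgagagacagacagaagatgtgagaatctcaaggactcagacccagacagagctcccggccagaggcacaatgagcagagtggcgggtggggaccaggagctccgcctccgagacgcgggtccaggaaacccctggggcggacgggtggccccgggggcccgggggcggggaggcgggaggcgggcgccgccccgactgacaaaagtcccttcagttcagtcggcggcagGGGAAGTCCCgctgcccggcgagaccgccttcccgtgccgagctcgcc
Tnfaip3: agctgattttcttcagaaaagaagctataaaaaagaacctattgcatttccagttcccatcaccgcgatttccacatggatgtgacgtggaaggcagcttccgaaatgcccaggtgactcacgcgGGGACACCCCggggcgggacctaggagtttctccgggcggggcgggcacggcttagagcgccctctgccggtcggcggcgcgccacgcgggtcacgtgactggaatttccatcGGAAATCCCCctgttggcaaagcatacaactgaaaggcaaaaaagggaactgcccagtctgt
Tnip3: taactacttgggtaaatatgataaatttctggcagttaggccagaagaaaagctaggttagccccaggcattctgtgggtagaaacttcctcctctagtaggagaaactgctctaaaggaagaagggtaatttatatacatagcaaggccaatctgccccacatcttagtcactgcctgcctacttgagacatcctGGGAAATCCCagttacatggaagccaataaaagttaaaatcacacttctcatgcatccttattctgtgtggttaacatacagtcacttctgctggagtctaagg

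A match says that these letters stand in the window, not that a factor binds there. Birc3, Icam1, Gadd45b, Tnf and Zc3h12a had a window without a match, and their counts are described beside those of the matched genes below.

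Library totals ranged from 44977847 to 56449685 counts. A library of the R788 group, SJ8, stood apart, with 16149 genes detected against 17275 to 18343 in the other 11, and the R788 pair differed most within its group (chi-square per degree of freedom 37.6, against 7.72 to 16.7 in the other pairs). Calls that rest on SJ8 are therefore counted with and without it, and those lost without it are named. All 7 macrophage markers had counts in every library. Their summed normalized count, mostly Lyz2, was 1585000 to 1632000 in NS, 1977000 to 2102000 in NB9464 TCM and 2202000 to 2350000 in NBT3L TCM. With R788 it was 1640000 to 1823000 without TCM, 2401000 to 2502000 in NB9464 TCM and 2608000 to 2652000 in NBT3L TCM. Single markers moved both ways. In NS and NB9464 TCM, Adgre1 had 75340 and 72140 against 222600 and 220700, and Cd68 58440 and 59530 against 37360 and 37950. With R788, Fcgr1 and Itgam were lower in each medium, whereas Csf1r, Adgre1 and Mertk were higher. In NS and R788, Fcgr1 had 13790 and 13970 against 3045 and 2874, and Csf1r 96380 and 94490 against 133800 and 134300. The summed normalized count of 5 neutrophil markers was 3652 to 4101 in NS, 8024 to 8170 in NB9464 TCM, 9845 to 9979 in NBT3L TCM and 2362 to 3609 in R788. With R788 it was 6601 to 7217 in NB9464 TCM and 7040 to 7272 in NBT3L TCM, below the same TCM alone. The sum of 4 fibroblast markers was 1181 to 1460 in NS against 2555 to 2973 in R788, 1397 to 1471 in NB9464 TCM against 1931 to 2213 with R788, and 1660 to 1918 in NBT3L TCM against 3256 to 3356 with R788. The neutrophil sum was mostly S100a8 and S100a9, and the defining marker Ly6g stayed at or below 3.79 normalized counts. Of the neutrophil markers only S100a8 rose, from 1161 and 1369 in NS to 6072 and 6013 in NB9464 TCM and 8055 and 7901 in NBT3L TCM. S100a9 went from 2368 and 2596 to 2098 and 2006 in NB9464 TCM and 1922 and 1937 in NBT3L TCM. Mpo and Elane were lower as well in both. The 3 endothelial markers summed to 1398 to 1501 in NS and to 142 to 152 in NB9464 TCM, most of it Kdr, with Tek at 3 counts or fewer. In NBT3L TCM they summed to 482.6 to 500. With R788 the endothelial sum was 705.3 to 992.4 without TCM, 34.4 to 67.6 in NB9464 TCM and 112.5 to 137.9 in NBT3L TCM, each below the same medium alone. The T cell and dendritic cell lists summed to at most 27.6 and 89.0, and the 6 neuroblastoma markers were at 0 in NS and at 23.9 to 71.1 in the 4 TCM groups, with Th at 3 counts or fewer. What part these cells or signals have in the results was not tested.

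The members were abundant transcripts. Their median mean normalized count (counts divided by the size factor of the library) was 4634, against 625 for all genes tested, and 37 of 38 had a mean of at least 1000. Per kilobase of gene length and averaged over the 6 groups, Nfkbia stood highest at 12160 normalized counts per kb, followed by Tnfaip2 at 4560, Tnf at 4153, Tnip1 at 3914, Irak3 at 3527 and Ier3 at 3188. Among the subunits the order per kb was Rela at 2064, Nfkb2 at 1861, Nfkb1 at 862, Relb at 700 and Rel at 276. Birc2 at 238 and Vcam1 at 3.66 stood last. Vcam1, an endothelial adhesion molecule, was thus close to undetected in these macrophages, with 24.4 and 20.9 normalized counts in NS and 41.8 and 0 in R788, and it was called in no comparison.

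**Figure D1:**
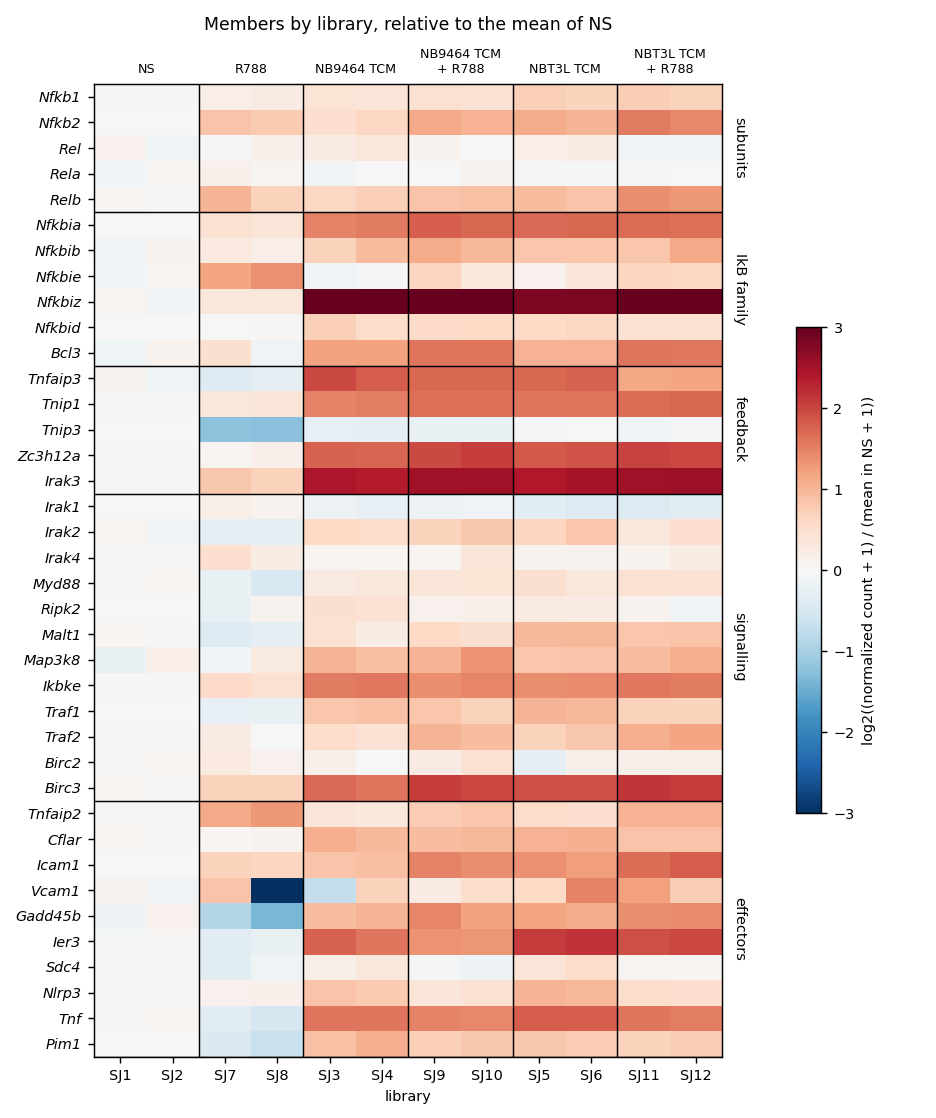
Heat map of the 38 genes (rows, by role) in the 12 libraries (columns, by group), coloured by the log2 ratio of the normalized count plus 1 to the mean of the 2 NS libraries plus 1. Values beyond 3 in either direction are drawn at the end of the scale, which holds for Nfkbiz in some TCM libraries and for Vcam1 in SJ8. The 4 TCM groups are red for most IkB, feedback and effector genes, and Tnip3 and Gadd45b are blue in the 2 R788 libraries without TCM.

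Most of the 38 genes were expressed at higher levels in NB9464 TCM than in NS. Of them, 31 were called higher and 2 lower, against a background over all genes tested of 17.2% called higher and 16.9% lower. NBT3L TCM gave 29 called higher and 1 lower, with a background of 18.0% and 17.3%. A gene was called when its DESeq2 adjusted p was under 0.05. Since the members were abundant, a closer background is that of the 6989 abundant genes, those with a mean normalized count of 1000 or more, of which 27.5% and 29.9% were called higher in the respective TCM. The median log2 fold change of the members was 0.75 in NB9464 TCM and 0.95 in NBT3L TCM, where that of all genes tested was 0.02 and 0.00. Both comparisons use the same 2 NS libraries and are therefore given side by side. With at least a 2-fold change asked for as well, 12 members were called higher in NB9464 TCM and 17 in NBT3L TCM. The share of all genes at this minimum is not given here, so these 2 counts have no background to be read against.

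Among the subunits, Nfkb1, Nfkb2 and Relb rose in both media, and Rela, the p65 subunit that carries most of the canonical transcriptional activity, was called in neither. Rela counts were 5304 and 5846 in NS, 5256 and 5514 in NB9464 TCM and 5322 and 5326 in NBT3L TCM. The groups overlapped in both cases, and the fold changes were log2 -0.05 ± 0.07 (SE, adjusted p = 0.678, 95% interval -0.19 to 0.09) and -0.07 ± 0.07 (adjusted p = 0.549). Nfkb1, which encodes the p105 precursor of p50, had counts of 7825 and 7556 in NS, 10270 and 10070 in NB9464 TCM and 12620 and 12160 in NBT3L TCM, without overlap. It rose by 0.40 ± 0.05 (adjusted p = 4.71e-13) and 0.69 ± 0.05 (adjusted p = 1.7e-36). The partners of the non-canonical pathway moved further. Nfkb2 counts were 3267 and 3229 in NS, 4640 and 4964 in NB9464 TCM and 7082 and 6639 in NBT3L TCM, rises of 1.48-fold and 2.11-fold. Relb, the partner of p52, went from 1589 and 1470 to 2338 and 2523 in NB9464 TCM (log2 0.67 ± 0.11, adjusted p = 9.84e-09) and 2939 and 2783 in NBT3L TCM (log2 0.90 ± 0.11, adjusted p = 2.55e-15). Rel had counts of 2112 and 1756 in NS, 2311 and 2448 in NB9464 TCM and 2232 and 2241 in NBT3L TCM. It was called in NB9464 TCM (log2 0.30 ± 0.11, adjusted p = 0.0256) and not in NBT3L TCM (log2 0.21 ± 0.11, adjusted p = 0.146), and the call was lost without SJ2, SJ3 or SJ4.

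Of the 6 IkB family genes, 5 rose in each TCM. Nfkbiz (chr16:55811375-55838899), which encodes IkB zeta, a nuclear cofactor needed for secondary targets such as interleukin-6, changed most of all 38 genes. Its counts were 1290 and 1146 in NS, 9813 and 10100 in NB9464 TCM and 8646 and 8636 in NBT3L TCM. That is a rise of 8.17-fold (log2 3.03 ± 0.07) and 7.09-fold (log2 2.83 ± 0.07), with adjusted p values too small for DESeq2 to write. Nfkbia, the IkB that retains p65 in the cytoplasm, went from 7724 and 7867 in NS to 22000 and 22990 in NB9464 TCM and 25310 and 25610 in NBT3L TCM. These rises were log2 1.53 ± 0.05 (adjusted p = 2.32e-200) and 1.71 ± 0.05 (adjusted p = 1.26e-249). Bcl3, which pairs with p50 and p52 dimers in the nucleus, had 1543 and 1809 in NS, 3876 and 3843 in NB9464 TCM and 3478 and 3452 in NBT3L TCM. Nfkbib (IkB beta) rose by log2 0.82 and 0.84, and Nfkbid (IkB-NS) by 0.64 and 0.62. Nfkbib overlaps Sirt2 on the opposite strand, which had more counts than Nfkbib itself, so its counts are uncertain if strand was ignored. The same holds for Irak4 (Twf1), Myd88 (Acaa1a), Irak3 (Tmbim4) and Nfkb2 (Psd), although Tmbim4 and Psd had fewer counts than the member they overlap. Nfkbie was the exception, with 1197 and 1321 in NS, 1163 and 1219 in NB9464 TCM and 1373 and 1619 in NBT3L TCM. It was called in neither (log2 -0.08 ± 0.13, adjusted p = 0.725, and 0.25 ± 0.13, adjusted p = 0.137).

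The feedback inhibitors had the highest median of the classes, a log2 fold change of 1.76 in NB9464 TCM and 1.74 in NBT3L TCM, and 4 of 5 rose in both. Irak3 (chr10:120141648-120202130) encodes IRAK-M, the kinase-dead relative that blocks signalling by the IRAK kinases. Its counts were 3161 and 3055 in NS, 16840 and 15900 in NB9464 TCM and 16360 and 17170 in NBT3L TCM, which is 5.27-fold (log2 2.40 ± 0.06) and 5.39-fold (log2 2.43 ± 0.06) above NS. Tnfaip3 went from 2190 and 1855 to 8008 and 7170 in NB9464 TCM (log2 1.91 ± 0.09, adjusted p = 1.22e-102) and 6666 and 6849 in NBT3L TCM (log2 1.74 ± 0.09, adjusted p = 4.52e-85). No TCM library of either gene came near the NS libraries. Zc3h12a, the RNase Regnase-1 that degrades inflammatory mRNAs, rose by log2 1.76 and 1.86, and Tnip1, which encodes the A20 partner ABIN-1, by 1.51 and 1.60. Tnip3 did not rise. Its counts were 7696 and 7792 in NS, 6531 and 6391 in NB9464 TCM and 7479 and 7701 in NBT3L TCM. It fell in NB9464 TCM (log2 -0.26 ± 0.06, adjusted p = 2.87e-05) and was not called in NBT3L TCM (log2 -0.03 ± 0.06, adjusted p = 0.769).

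**Figure D2:**
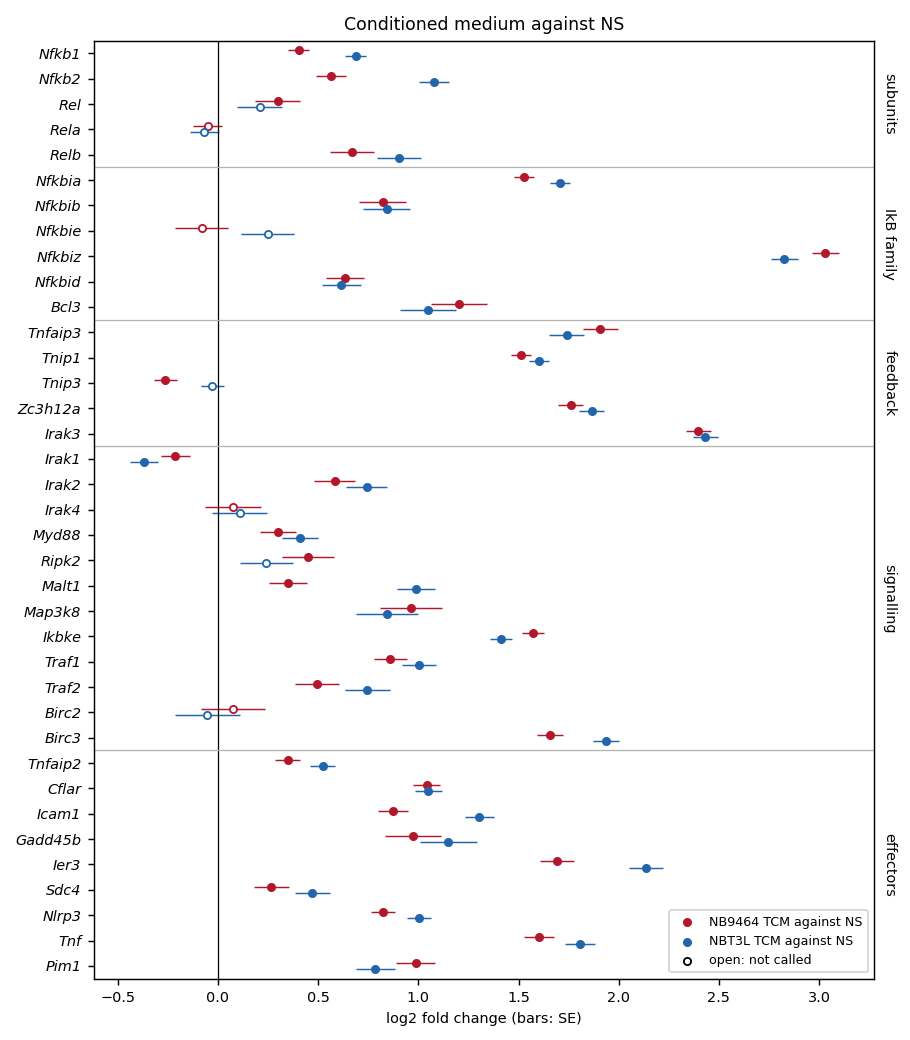
Log2 fold change of each gene in NB9464 TCM (red) and NBT3L TCM (blue) against NS, with bars of 1 SE from DESeq2 and open points for genes not called. Vcam1 is left out for its SE above 1. Most points lie to the right of 0, from Nfkbiz at 3.03 and 2.83 down to Tnip3 at -0.26 in NB9464 TCM and Irak1 at -0.37 in NBT3L TCM, and Rela, Nfkbie, Irak4 and Birc2 are open in both media.

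Most signalling components rose as well. Of 12, 9 rose and 1 fell in NB9464 TCM, and 8 rose and 1 fell in NBT3L TCM. Birc3, the ubiquitin ligase cIAP2, went from 3021 and 2789 in NS to 9453 and 8873 in NB9464 TCM (log2 1.66 ± 0.06, adjusted p = 1.85e-143) and 11150 and 11110 in NBT3L TCM (log2 1.94 ± 0.06, adjusted p = 5.57e-196). Its paralog Birc2, cIAP1, was called in neither, with 951 and 1034 in NS, 1112 and 982 in NB9464 TCM and 807 and 1107 in NBT3L TCM. Ikbke, the IKK-related kinase IKK epsilon, rose from 6830 and 6602 to 19800 and 20080 and 17770 and 17960, 2.97-fold and 2.66-fold. The adaptors of the TNF receptors Traf1 (log2 0.86 and 1.0) and Traf2 (0.50 and 0.75) rose in both, as did the kinase gene Map3k8, or Tpl2 (0.97 and 0.85). At the receptor-proximal Myddosome, Irak1 fell while Irak2 rose. Irak1 counts were 4965 and 4935 in NS, 4389 and 4163 in NB9464 TCM (log2 -0.21 ± 0.07, adjusted p = 0.011) and 3928 and 3743 in NBT3L TCM (log2 -0.37 ± 0.07, adjusted p = 1.92e-06). Without SJ1, SJ2 or SJ4 the fall of Irak1 in NB9464 TCM was not called. Irak2 rose by log2 0.58 and 0.74, and the adaptor gene Myd88, which overlaps Acaa1a on the opposite strand, by 0.30 and 0.41, the first not called without SJ1 or SJ4. Irak4, which overlaps Twf1 on the opposite strand, was not called, at 0.08 and 0.11. Ripk2, the kinase that acts downstream of the NOD receptors, was called in NB9464 TCM at 0.45 (adjusted p = 0.00223) and not in NBT3L TCM at 0.24 (adjusted p = 0.142). The difference of Ripk2 between the media was not called either (adjusted p = 0.355).

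Of the 10 effector targets, 9 rose in each TCM, all but Vcam1. Tnf, the cytokine that both follows from and feeds NF-kB activity, had counts of 2781 and 3037 in NS, 8835 and 8836 in NB9464 TCM and 10210 and 10140 in NBT3L TCM. It rose by log2 1.60 ± 0.07 (adjusted p = 1.11e-101) and 1.81 ± 0.07 (adjusted p = 5.5e-129). Ier3, an early response gene linked to cell survival, rose most of the class. From 1336 and 1384 in NS it went to 4608 and 4174 in NB9464 TCM and 5806 and 6147 in NBT3L TCM, 3.23-fold and 4.39-fold. The TCM libraries of both genes lay wholly above the NS libraries. Cflar, which encodes the caspase-8 inhibitor c-FLIP, rose by log2 1.04 and 1.05, and Pim1, a survival kinase, by 0.99 and 0.79. Gadd45b, a stress-induced regulator of MAP kinase signalling, rose by 0.97 and 1.15, and the adhesion molecule gene Icam1 by 0.87 and 1.30. Nlrp3, the inflammasome sensor whose transcription NF-kB primes, went from 6034 and 5708 to 10700 and 10100 and 11860 and 11690 (log2 0.82 and 1.0). The smallest called rises of the class were those of Tnfaip2 (0.35 and 0.52) and of the proteoglycan gene Sdc4 (0.27, not called without SJ2 or SJ4, and 0.47). The summed macrophage and neutrophil markers were also higher, the latter through S100a8 only, and the endothelial markers lower, in the TCM groups, as above. The part of these sums in the rises was not tested.

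Between the 2 conditioned media without R788, 11 members were called lower and 2 higher in NB9464 TCM than in NBT3L TCM. The background was 5.72% lower and 3.69% higher over all genes tested, and 11.5% lower and 5.88% higher over the abundant genes. Malt1, the paracaspase that links CARD adaptors to IkB kinase, differed most, with 2999 and 2558 in NB9464 TCM against 4271 and 4371 in NBT3L TCM and 2261 and 2096 in NS (log2 -0.64 ± 0.09, adjusted p = 9.88e-10). It was followed by Nfkb2 at log2 -0.51 ± 0.07 (adjusted p = 1.02e-10), Ier3 at -0.45 ± 0.08 (adjusted p = 1.55e-06), Icam1 at -0.43 ± 0.07 (adjusted p = 1.05e-07) and Nfkb1 at -0.28 ± 0.05 (adjusted p = 3.06e-06). Birc3 (log2 -0.28, adjusted p = 0.000167) and Tnip3 (-0.23, adjusted p = 0.000901) were lower as well, the call of Tnip3 not without SJ6. These 7 were also called by edgeR. The other 4 lower calls, Nfkbia, Tnfaip2, Nlrp3 and Tnf, lay between log2 -0.20 and -0.17 and were not called by edgeR, nor were the 2 higher calls, Nfkbiz (0.20) and Ikbke (0.16). Rela (log2 0.02 ± 0.07, adjusted p = 0.935) and Tnfaip3 (log2 0.17 ± 0.09, adjusted p = 0.219) did not pass the test.

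Next, the effect of the Syk inhibitor was taken in each medium, against the same medium without R788. These 3 comparisons share no libraries. Without TCM, 13 members were called higher and 11 lower with R788, against a background of 11.6% higher and 15.0% lower. In NB9464 TCM 11 were called higher and 3 lower (background 5.79% and 8.70%), and in NBT3L TCM 10 were called higher and 8 lower (background 5.33% and 7.24%). Over the abundant genes, the background was 19.1% higher and 25.5% lower without TCM, 10.9% and 15.2% in NB9464 TCM, and 9.43% and 13.3% in NBT3L TCM. The 28.9% of members called lower without TCM and the 7.9% called lower in NB9464 TCM were thus close to or under the background of abundant genes. The median log2 fold change of the members was 0.12, 0.14 and 0.04 in the 3 media. Without SJ8, 14 members were called higher and 8 lower in the absence of TCM. Of the 24 calls there, 21 were also made without SJ8, with the fold changes moving by at most 0.23 on the log2 scale (Gadd45b), and Irak2, Myd88 and Traf1 were not called. Of the 38 genes, 6 were called higher in all 3 media (Nfkb2, Nfkbie, Nfkbiz, Birc3, Tnfaip2 and Icam1), 1 was called lower in all 3 (Sdc4), and none was called in opposite directions in any 2 of them. Another 8 were called in no medium: Rela, Nfkbib, Nfkbid, Irak1, Ripk2, Map3k8, Birc2 and Vcam1.

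Among the subunits, Nfkb2 rose with R788 in each medium, and Rela was not called. Nfkb2 had 5895 and 5609 counts in R788 against 3267 and 3229 in NS, 7109 and 6646 against 4640 and 4964 in NB9464 TCM, and 9512 and 8876 against 7082 and 6639 in NBT3L TCM. The R788 libraries were above the others in every medium. The log2 fold changes were 0.82 ± 0.07 (adjusted p = 1.5e-27), 0.52 ± 0.07 (adjusted p = 4.58e-11) and 0.42 ± 0.07 (adjusted p = 1.5e-07). Its partner Relb had 3107 and 2489 counts in R788 without TCM (log2 0.87 ± 0.11, adjusted p = 5.03e-14, and 1.02 without SJ8), 2783 and 2811 in NB9464 TCM + R788 (0.20 ± 0.11, adjusted p = 0.208) and 4027 and 3769 in NBT3L TCM + R788 (0.45 ± 0.11, adjusted p = 0.000576). The rise of Relb was called without TCM and in NBT3L TCM. Nfkb1 was called without TCM only at log2 0.22 ± 0.05 (adjusted p = 0.000247), with 0.04 and 0.03 in the conditioned media, and its interaction between media was not called. Rela had 6173 and 5920 counts in R788, 5601 and 5968 in NB9464 TCM + R788 and 5402 and 5629 in NBT3L TCM + R788. Its log2 fold changes were 0.12 ± 0.07, 0.10 ± 0.07 and 0.05 ± 0.07 (adjusted p = 0.239, 0.382 and 0.751). Rel was called lower in NBT3L TCM at -0.31 ± 0.11 (adjusted p = 0.0407), which edgeR did not call and which was lost without any one of the 4 libraries.

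Among the IkB genes, every R788 call was a rise. Nfkbie had 2880 and 3270 counts in R788 against 1197 and 1321 in NS (log2 1.29 ± 0.13, adjusted p = 3.03e-21), and log2 1.29 became 1.19 without SJ8. It also rose in NB9464 TCM, to 1975 and 1573 (log2 0.58 ± 0.13, adjusted p = 0.000204, not called without SJ9). In NBT3L TCM it reached 1978 and 1935 (log2 0.39 ± 0.13, adjusted p = 0.0259, not called by edgeR or without SJ5, SJ11 or SJ12). The IkB gene that was called in neither TCM thus had the largest fold change of its class with R788, both without TCM and in NB9464 TCM. Nfkbia rose without TCM, from 7724 and 7867 to 10720 and 10240 (log2 0.43 ± 0.05, adjusted p = 1.35e-15), and in NB9464 TCM, to 26810 and 25930 (log2 0.23 ± 0.05, adjusted p = 6.25e-05). In NBT3L TCM + R788 it had 25080 and 24620, below both NBT3L TCM libraries, and the difference was not called (log2 -0.04 ± 0.05, adjusted p = 0.746). Nfkbiz rose in each medium, by log2 0.33, 0.39 and 0.26, reaching 13000 and 13050 in NB9464 TCM + R788, the highest level of this gene in any group. Bcl3 rose in NBT3L TCM to 5135 and 5028 (log2 0.55 ± 0.14, adjusted p = 0.000851) and in NB9464 TCM to 5104 and 5128 (log2 0.41 ± 0.14, adjusted p = 0.0204, not called by edgeR or without any one of the 4 libraries). Without TCM its R788 libraries were 2342 and 1525 and overlapped NS, and log2 0.21 became 0.48 and was called when SJ8 was left out. Nfkbib (between 0.15 and 0.25) and Nfkbid (between -0.18 and 0.02) did not pass the test in any medium.

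**Figure D3:**
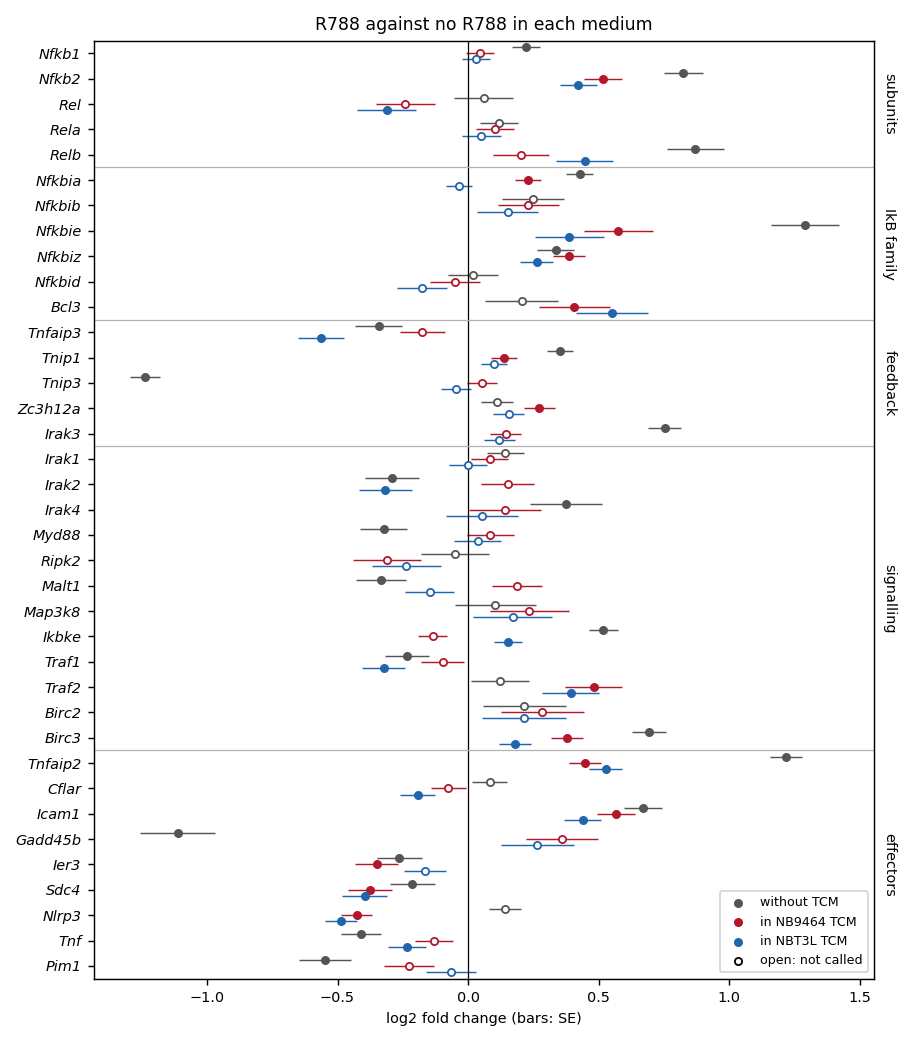
Log2 fold change of each gene with R788 against the same medium without it, in medium without TCM (grey), NB9464 TCM (red) and NBT3L TCM (blue), with bars of 1 SE from DESeq2 and open points for genes not called. Vcam1 is left out for its SE above 1. Nfkb2, Nfkbie, Tnfaip2 and Icam1 lie to the right of 0 in all 3 media, and Tnip3 and Gadd45b stand at -1.24 and -1.11 without TCM but near or above 0 in the conditioned media.

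The feedback inhibitors moved both ways under R788. Tnip3 (chr6:65525313-65634040) had 3307 and 3257 counts in R788 without TCM against 7696 and 7792 in NS, less than in any other group (log2 -1.24 ± 0.06, adjusted p = 1.43e-97, and -1.23 without SJ8). In the conditioned media it was not called, with 6673 and 6739 in NB9464 TCM + R788 (log2 0.05 ± 0.06) and 7327 and 7379 in NBT3L TCM + R788 (-0.05 ± 0.06). Tnfaip3 was lower with R788 in NBT3L TCM, at 4542 and 4604 against 6666 and 6849 (log2 -0.56 ± 0.09, adjusted p = 3.35e-09). It was also lower without TCM, at 1541 and 1649 against 2190 and 1855 (log2 -0.34 ± 0.09, adjusted p = 0.000972, not called without SJ1). In NB9464 TCM, 6726 and 6718 against 8008 and 7170 did not pass the test (log2 -0.17 ± 0.09, adjusted p = 0.157). All 3 media thus had lower values with R788, and the interaction between the conditioned media did not pass the test (adjusted p = 0.122). Irak3 rose without TCM from 3161 and 3055 to 5471 and 5007 (log2 0.75 ± 0.06, adjusted p = 1.49e-31), whereas in NB9464 TCM + R788 (18050 and 18150, log2 0.14 ± 0.06, adjusted p = 0.072) and NBT3L TCM + R788 (18140 and 18290, log2 0.12 ± 0.06, adjusted p = 0.18) it was not called. Zc3h12a was called in NB9464 TCM at log2 0.27 ± 0.06 (adjusted p = 7.38e-05). Tnip1 was called without TCM at 0.35 and in NB9464 TCM at 0.14, the latter not by edgeR or without any one of the 4 libraries.

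In the signalling class, 3 genes were called higher and 4 lower without TCM, 2 and 0 in NB9464 TCM, and 3 and 2 in NBT3L TCM. As shares of the 12 genes these were 25.0% and 33.3%, 16.7% and 0.0%, and 25.0% and 16.7%. The abundant genes gave 19.1% and 25.5%, 10.9% and 15.2%, and 9.43% and 13.3%. Birc3 rose in the 3 media by log2 0.69 ± 0.07, 0.38 ± 0.06 and 0.18 ± 0.06 (adjusted p = 1.15e-24, 4.64e-08 and 0.0309), with 4695 and 4697 counts in R788 alone, and the last of these was not called by edgeR or without any one of the 4 libraries. Traf2 rose in both conditioned media, to 2719 and 2581 from 1975 and 1824 in NB9464 TCM (log2 0.48 ± 0.11, adjusted p = 0.00017) and to 2876 and 3063 from 2170 and 2350 in NBT3L TCM (log2 0.39 ± 0.11, adjusted p = 0.00356, not called without SJ5 or SJ12). Traf1 moved the other way in NBT3L TCM, with 2967 and 2953 against 3727 and 3683 (log2 -0.32 ± 0.08, adjusted p = 0.00122), and without TCM (-0.23). Without TCM, Ikbke rose at 0.52 and Irak4 at 0.38, while Malt1 (-0.33 ± 0.10, adjusted p = 0.00298, not called without SJ1), Myd88 (-0.32) and Irak2 (-0.29) fell. In a fit of the 4 NS and R788 libraries alone, the falls of Malt1, Irak2 and Traf1 and the rise of Irak4 were not called. Falls in other classes were also lost in that fit, which called 5 members lower, against 11 in the main fit. Irak2 also fell in NBT3L TCM at -0.32 (not called without SJ6 or SJ11) and Ikbke was called there at 0.15, the latter not by edgeR or without any one of the 4 libraries.

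The effector targets moved in both directions with R788, with 2 called higher in each medium and 5 called lower in the absence of TCM, against 3 in NB9464 TCM and 4 in NBT3L TCM. Tnfaip2, a cytosolic protein of uncertain function named for its induction by TNF, had 30300 and 34120 counts in R788 against 14190 and 13530 in NS, 23340 and 24800 against 17930 and 17370 in NB9464 TCM, and 28610 and 28740 against 20270 and 19550 in NBT3L TCM. These were rises of 2.32-fold, 1.36-fold and 1.44-fold (log2 1.22 ± 0.06, 0.45 ± 0.06 and 0.53 ± 0.06, adjusted p = 3.5e-83, 2.66e-11 and 1.51e-15), the first 1.13 on the log2 scale without SJ8. Its highest counts were those of R788 without TCM, whereas the other 9 effectors had their highest mean in a TCM group. Icam1 rose by 0.67 ± 0.07, 0.57 ± 0.07 and 0.44 ± 0.07, and reached 11180 and 12390 in NBT3L TCM + R788. Sdc4 was called lower in the 3 media, at log2 -0.21, -0.38 and -0.40, the first not called by edgeR or without SJ1, SJ2 or SJ7. Nlrp3 fell in both conditioned media and not without TCM. It had 7612 and 7871 against 10700 and 10100 in NB9464 TCM (log2 -0.43 ± 0.06, adjusted p = 5.61e-11), 8508 and 8309 against 11860 and 11690 in NBT3L TCM (-0.49 ± 0.06, adjusted p = 3.17e-14), and 6380 and 6567 in R788 against 6034 and 5708 in NS (0.14 ± 0.06, adjusted p = 0.0636). The libraries with both TCM and R788 remained above the NS libraries.

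For Tnf the R788 difference was downward in each medium, and for Gadd45b its direction varied with the medium. Tnf had 2327 and 2052 counts in R788 against 2781 and 3037 in NS (log2 -0.41 ± 0.08, adjusted p = 8.06e-07, and -0.32 without SJ8), 8185 and 7957 against 8835 and 8836 in NB9464 TCM (-0.13 ± 0.07, adjusted p = 0.232) and 8903 and 8408 against 10210 and 10140 in NBT3L TCM (-0.23 ± 0.07, adjusted p = 0.0121, not called by edgeR or without SJ5, SJ6 or SJ12). Its counts were lower with R788 in every medium and called in 2 of 3. They did not overlap, which held for 30, 34 and 32 of the 38 members in the 3 media, many of them not called. Gadd45b (chr10:80930073-80932204) had 673 and 477 counts in R788 against 1123 and 1358 in NS (log2 -1.11 ± 0.15, adjusted p = 4.65e-13, and -0.88 without SJ8, still called). With TCM and R788 it had 3401 and 2849 against 2372 and 2500 in NB9464 TCM (log2 0.36 ± 0.14, adjusted p = 0.0533) and 3286 and 3323 against 2811 and 2692 in NBT3L TCM (0.26 ± 0.14, adjusted p = 0.215). The R788 libraries lay below NS without TCM and above their controls in both conditioned media, where no call was made. Pim1 fell without TCM (log2 -0.55 ± 0.10, adjusted p = 4.64e-07, and -0.43 without SJ8), and Ier3 fell without TCM (-0.26, not called without SJ2 or SJ7) and in NB9464 TCM (-0.35, adjusted p = 0.000287, not called without SJ3). Cflar was called lower in NBT3L TCM at -0.19, not by edgeR or without any one of the 4 libraries. The macrophage and fibroblast marker sums were higher, and the endothelial sum lower, with R788 in each medium, as given above. Within the macrophage list, Fcgr1 and Itgam were lower in each. The neutrophil sum was lower with R788 in both conditioned media. The part of these sums in the R788 results, the falls of Nlrp3, Tnf and Sdc4 included, was not tested.

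**Figure D4:**
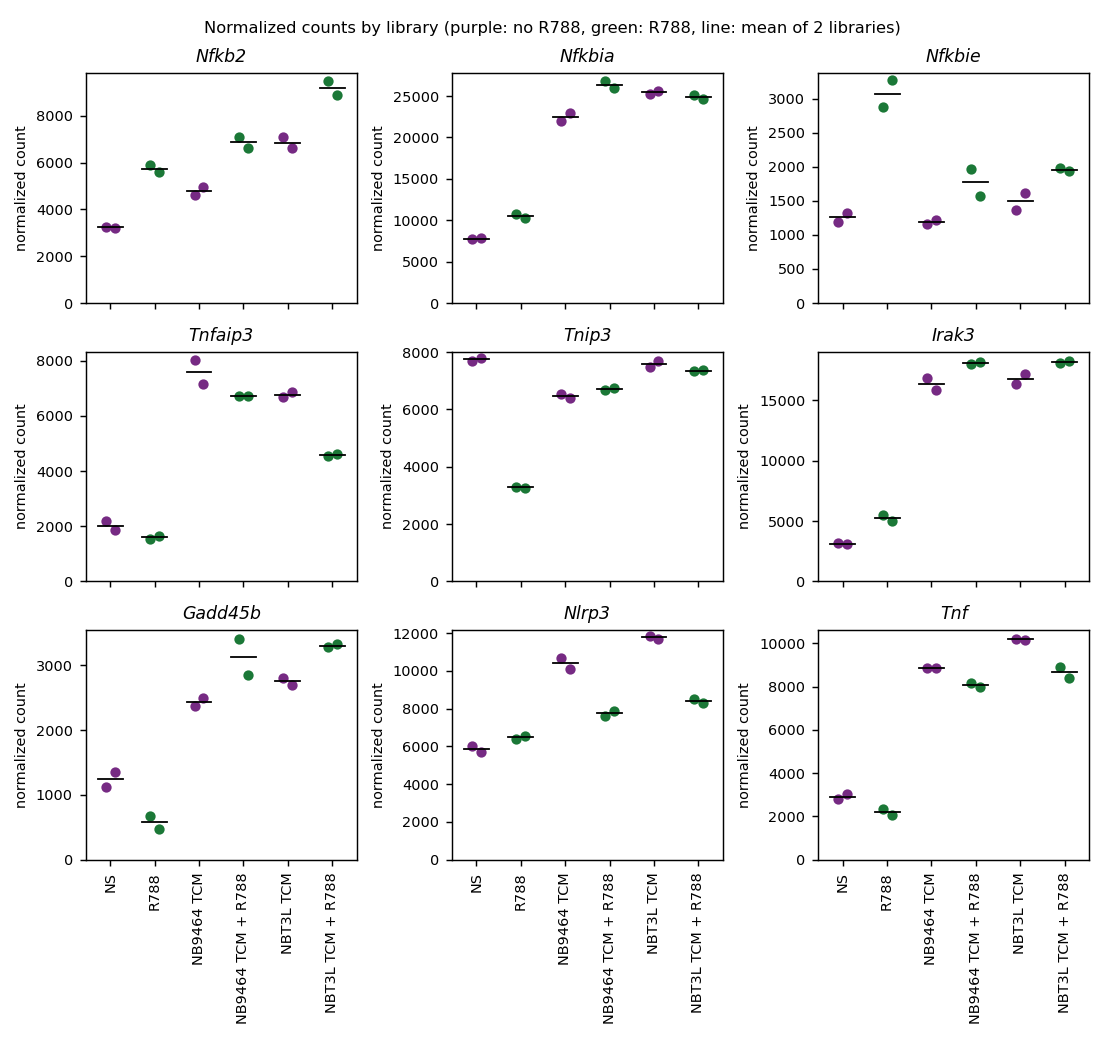
Normalized counts of 9 members in each library (purple without R788, green with R788, a line at the mean of the 2 libraries), by group, on linear axes from 0. Tnip3 is lowest in R788 without TCM (3307 and 3257) and Nlrp3 is lower with R788 in both conditioned media, while Nfkb2 is higher with R788 in every medium.

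The effect of R788 was then tested for a difference between media with interaction contrasts. Relative to its effect without TCM, the effect in NB9464 TCM was higher for 6 members and lower for 10 (background 6.22% and 6.26%), and that in NBT3L TCM was higher for 4 and lower for 11 (background 5.17% and 4.96%). Over the abundant genes, 11.9% and 11.2% were called in the 2 directions in the first contrast and 9.86% and 9.51% in the second, against 15.8% and 26.3%, and 10.5% and 28.9%, of the members. Both contrasts use the NS and R788 libraries, including SJ8, and are given side by side. Without SJ8 the counts were 4 and 10 in NB9464 TCM and 3 and 10 in NBT3L TCM, the calls of Myd88 being lost in both contrasts (adjusted p = 0.0636 and 0.174), that of Tnf in the first and that of Cflar in the second (adjusted p = 0.0775). Without SJ7, the other R788 library, the counts were 10 and 9 in NB9464 TCM and 8 and 12 in NBT3L TCM. Gadd45b had the largest positive differences, log2 1.47 ± 0.20 in NB9464 TCM (adjusted p = 2.34e-11) and 1.38 ± 0.20 in NBT3L TCM (adjusted p = 6.14e-10). Tnip3 followed with 1.29 ± 0.08 (adjusted p = 4.23e-53) and 1.19 ± 0.08 (adjusted p = 3.35e-45). For both genes the fall with R788 in the absence of TCM differed from the effect in either conditioned medium, and without SJ8 the differences were 1.24 and 1.15 for Gadd45b and 1.28 and 1.18 for Tnip3. Differences in the negative direction were led by Nfkbie (-0.71 ± 0.19, adjusted p = 0.00181, and -0.90 ± 0.19, adjusted p = 3.56e-05) and Tnfaip2 (-0.77 ± 0.09, adjusted p = 2.94e-16, and -0.69 ± 0.09, adjusted p = 4.21e-13), both of which rose less under R788 in TCM. Irak3 (-0.61 and -0.63) and Nlrp3 (-0.57 and -0.63) differed by similar amounts. Relb differed by -0.67 ± 0.15 in NB9464 TCM (adjusted p = 0.000287) and -0.42 ± 0.15 in NBT3L TCM (adjusted p = 0.0455). The latter was not called by edgeR or without SJ1, SJ2, SJ5, SJ6, SJ7, SJ11 or SJ12. The difference of Tnf in NB9464 TCM, 0.28 ± 0.11 (adjusted p = 0.0491), was not called by edgeR, and without SJ8 it was 0.19 and not called (adjusted p = 0.181). In the signalling class, Ikbke (-0.65) and Malt1 (0.52) led the negative and positive differences in NB9464 TCM, and Birc3 (-0.51) and Myd88 (0.36, not by edgeR) those in NBT3L TCM.

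Between the conditioned media, the effect of R788 was higher for 1 member and lower for 1 (background 0.283% and 0.424%). These were Nfkbia, with a difference of 0.26 ± 0.07 (NB9464 TCM minus NBT3L TCM, adjusted p = 0.027), and Ikbke, with -0.29 ± 0.08 (adjusted p = 0.0265). Neither was called by edgeR (adjusted p = 0.309 and 0.225). The difference for Tnfaip3 was 0.39 ± 0.12 with a 95% interval of 0.15 to 0.63 and did not pass the test after adjustment (adjusted p = 0.122). A miss of the threshold does not show that R788 acts alike on it in the 2 media.

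From 32 other genes of the pathway, NB9464 TCM gave 12 calls of a rise and 1 of a fall against NS, and 13 and 2 in NBT3L TCM, or 37.5% and 40.6% called higher against 81.6% and 76.3% of the members. Both lists were chosen with earlier results of these data known, so this contrast is descriptive only. Under R788, 6 were called higher and 4 lower without TCM (18.8% and 12.5%), 3 and 4 in NB9464 TCM (9.4% and 12.5%), and 5 and 6 in NBT3L TCM (15.6% and 18.8%). These shares were under the background of the abundant genes given above in the first 2 media and above it in NBT3L TCM. Tnfrsf1b, which encodes TNF receptor 2, rose most in both TCM, from 17240 and 16390 in NS to 66970 and 66020 in NB9464 TCM (log2 1.98 ± 0.04) and 82590 and 83050 in NBT3L TCM (2.30 ± 0.04). Ripk1, the kinase of the TNF receptor complex, fell in NB9464 TCM (log2 -0.24 ± 0.08, adjusted p = 0.0059) and NBT3L TCM (-0.31 ± 0.08, adjusted p = 0.000244), and Tab1, a partner of the kinase TAK1, fell most in NBT3L TCM (-0.59 ± 0.13, adjusted p = 5.59e-05). Between the conditioned media 4 of the 32 genes were called, 1 upward and 3 downward in NB9464 TCM relative to NBT3L TCM. As shares, 3.1% and 9.4%, both lay under the 5.88% and 11.5% of the abundant genes. Cd40, a receptor of the TNF family, had 846 and 978 counts in NB9464 TCM against 1740 and 1778 in NBT3L TCM (log2 -0.95 ± 0.13, adjusted p = 3.59e-11), and it fell to 371 and 407 in R788 from 830 and 782 in NS (-1.05 ± 0.14, adjusted p = 5.55e-13, and -1.12 without SJ8). Card9, the adaptor downstream of Syk-coupled lectin receptors, rose under R788 without TCM from 3616 and 3593 to 5882 and 6843 (log2 0.82 ± 0.09, adjusted p = 7.84e-18, and 0.71 without SJ8). Ticam2, the TRIF-related adaptor TRAM, was called higher under R788 in all 3 media (log2 0.52, 0.82 and 0.86). Rnf31, the catalytic subunit of the linear ubiquitin ligase, was called lower in all 3 (-0.31, -0.46 and -0.30). Without SJ8, the calls of Ticam2 and Rnf31 in the absence of TCM were lost (adjusted p = 0.123 and 0.124).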

How the data were processed

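Bulk RNA-seq of 12 libraries in 6 groups of 2 was analysed. The authors deposited raw counts per Ensembl gene. The submitters' processing notes name STAR 2.6.1d, Salmon 1.4.0 and mm10, and which program counted, and whether it used strand, is not given in the sources used here. The labels describe paired-end libraries, and the methods triplicates and single reads. Even values made up 65.2% to 67.9% of the counts from 1 to 40 in the 12 libraries. Whether both reads of a pair were counted is not given, and the cause of this share was not tested. Genes that reached 10 counts in 2 or more libraries were fitted in DESeq2 1.42.0 (R 4.3.3) as 6 group means over the 12 libraries. Fold changes were unshrunken, tests were two-sided Wald tests with Benjamini-Hochberg adjustment over all genes tested, and genes were called at an adjusted p under 0.05. Alternatives were edgeR 4.0.16 quasi-likelihood tests, TMM scaling, other filters, halved counts, a 2-fold minimum, the compared libraries alone, and each library left out. The fit was tested on simulated data. Per comparison, the rule named the largest called rise and fall in each class, with Rela, Nfkb1, Nfkbia, Tnfaip3 and Tnf throughout. Other genes were named to account for every member. The members and lists were chosen with earlier results of these data known. Library totals ranged from 44977847 to 56449685 counts.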

Additional observations from a re-analysis of the deposited data

Results flagged for a closer look

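The R788 effect of the following genes differed between media by the interaction test (DESeq2, adjusted p under 0.05), each value being a difference of log2 fold changes. In NB9464 TCM minus no TCM, the differences were 1.47 for Gadd45b, 1.29 for Tnip3, 0.52 for Malt1, 0.44 for Irak2, 0.41 for Myd88 and 0.28 for Tnf. In the negative direction they were -0.77 for Tnfaip2, -0.71 for Nfkbie, -0.67 for Relb, -0.65 for Ikbke, -0.61 for Irak3, -0.57 for Nlrp3, -0.31 for Nfkb2, -0.31 for Birc3, -0.22 for Tnip1 and -0.20 for Nfkbia. In NBT3L TCM minus no TCM, they were 1.38 for Gadd45b, 1.19 for Tnip3, 0.48 for Pim1 and 0.36 for Myd88, and -0.90 for Nfkbie, -0.69 for Tnfaip2, -0.63 for Irak3, -0.63 for Nlrp3, -0.51 for Birc3, -0.46 for Nfkbia, -0.42 for Relb, -0.40 for Nfkb2, -0.36 for Ikbke, -0.28 for Cflar and -0.25 for Tnip1. Both sets use the NS and R788 libraries. In NB9464 TCM minus NBT3L TCM, the differences were 0.26 for Nfkbia and -0.29 for Ikbke. Of these 33 calls, edgeR did not make those of Nfkb2, Nfkbia, Tnip1 and Tnf in the first contrast, Relb, Tnip1, Myd88 and Cflar in the second, and both in the third. Each of these was also lost in some run with a library left out. In the first contrast the same held for Myd88, for Irak2 (without SJ1, SJ3, SJ4 or SJ10) and for Birc3 (without SJ2, SJ3 or SJ10). In the second it held for Pim1 (without SJ6 or SJ12). Without SJ8, Myd88 (0.29 and 0.24) was not called in the first and second, nor Tnf (0.19) in the first or Cflar (-0.24) in the second.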

How the results depend on the processing

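No called result changed direction under any alternative run. No paired analysis was possible because the groups share no replicate numbers. With a 2-fold minimum, members called higher and lower were 12 and 0 in NB9464 TCM against NS, 17 and 0 in NBT3L TCM against NS, 0 and 0 between the conditioned media, 2 and 2 for R788 without TCM, 0 and 0 in NB9464 TCM and in NBT3L TCM. The interactions gave 2 and 0, 2 and 0, and 0 and 0. The counts at this minimum are given without the share of all genes. By edgeR, 0 were higher and 7 lower between the conditioned media, 5 were lower with R788 in NBT3L TCM, and the last interaction gave 0 and 0. In the compared libraries alone, 5 were lower with R788 without TCM and 3 higher in the last interaction, where a mean of at least 50 counts left 0 higher. The cause of these shifts was not tested. With each library left out, the counts called higher and lower ranged from 28 to 30 and 1 to 2 in NB9464 TCM against NS (1 lower without SJ1, SJ2 or SJ4), 29 to 30 and 1 to 1 in NBT3L TCM against NS, and 0 to 0 and 6 to 9 between the media (7 lower without SJ5 and 6 without SJ6). For R788 they ranged from 12 to 14 and 6 to 9 without TCM (6 lower without SJ1 and 7 without SJ2), 8 to 10 and 3 to 3 in NB9464 TCM, and 6 to 8 and 4 to 5 in NBT3L TCM (6 higher without SJ5 or SJ12, and 5 or fewer lower without any one of the 4). For the interactions they ranged from 3 to 10 and 6 to 10 (3 higher without SJ3 or SJ10, 10 higher without SJ7, 6 lower without SJ2 or SJ10), from 2 to 8 and 8 to 12 (2 higher without SJ6 or SJ12, 8 higher without SJ7), and from 0 to 1 and 0 to 0 (each call lost without most of the 8 libraries). Lower depth was tried by halving all counts, which kept 336 of 342 single-gene results on their side of the threshold.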
